A study of Glycine max with 24 samples.

Results

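Phenylalanine ammonia-lyase (PAL) transcripts were followed in soybean (Glycine max) leaves across 4 lines and 2 treatments. The 5 loci were taken by name as known soybean PAL genes, and every transcript of these loci in the table was kept. They are Glyma19g36620.1, Glyma03g33880.1, Glyma10g06600.1, Glyma13g20800.1 and Glyma02g47940.1, each the single transcript of its locus and named below without the suffix, which makes 5 of the 41743 transcripts and 5 of the 41550 loci measured. The locus names place them on chromosomes 19, 3, 10, 13 and 2. All 5 passed the filter on low counts, among 33214 transcripts that did.

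PAL removes ammonia from phenylalanine to give trans-cinnamate, the entry step of the phenylpropanoid pathway. The pathway feeds lignin, flavonoids, the isoflavonoid phytoalexins of legumes and part of the salicylic acid pool. In many plants PAL transcripts are known to rise after contact with pathogens or elicitors, and the enzyme is encoded by a small gene family whose copies can differ in their control. RefSeq lists 8 soybean genes with a numbered PAL symbol. PAL1.1 lies on chromosome 19, PAL1.2 and PAL1.3 next to each other on chromosome 3, PAL2.1 and PAL2.4 on chromosome 10, PAL2.3 on chromosome 13, PAL2.2 on chromosome 20 and PAL3.1 on chromosome 2. RefSeq names matched 0 of the table's identifiers, so these symbols were not tied to single loci, no list of other pathway genes was formed and leaf markers were not checked. Copies of a family can share reads, and the sources used here do not give how reads that match several copies were counted, so each locus may hold reads of another copy.

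The study compared the early response of leaves to microbe-associated molecular patterns (MAMPs), molecules of microbes that plant receptors recognise. Lines R-11268 and R-11272 are recombinant inbred lines, bred by repeated selfing from a cross, and LD and LDX are the 2 parents of their population. Leaf slices of R-11268, R-11272, LD and LDX stood for 30 min in 5 ml of MAMP solution, with 1 µM flg22 (a peptide of bacterial flagellin) and 50 µg of crab shell chitin (a cell wall polymer of fungi and of crustacean shells), or in a control solution of water with DMSO. Each of the 8 groups of line and treatment had 3 libraries, and 1 replicate number of a line was read as 1 pool of leaves from 5 plants, divided between MAMP and control. All plants were 3 weeks old and had grown with 16 h of light a day, and all slices, control ones included, came from detached leaves that were infiltrated with water and floated overnight in the dark. Flg22 and chitin were given only together, so their effects cannot be told apart. In such bulk tissue, fewer cells of a type and less RNA per cell cannot be told apart either.

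Library totals ran between 9780810 and 20827163 estimated counts, and the lowest count of any PAL transcript in a library was 115.4 (Glyma03g33880, LD control 2). Levels are given as CPM, the estimated count over the TMM-scaled library size. CPM is not per length, so levels of different loci were not compared. The deposited values have the form of fitted values. Within a line the ratio of MAMP to control was the same in pools 1, 2 and 3 apart from library scaling, and for the 5 loci it varied by at most 0.039 on the log2 scale. The response of a locus in a line is thus 1 value, the tests measure it against the spread between pools, and there are 4 responses, one per line. The lines are related, as the parents and inbred lines of one population, so these 4 responses may not be independent. Nothing in the labels says how independent the pools of a line were, so the spread may in part be technical. LD pool 2, LDX pool 3 and R-11272 pool 1 stood apart: in their 6 libraries 9.35% to 30.6% of tested transcripts lay over 2-fold from the group median, against 0.0452% to 4.95% in the other 18 libraries. Responses and line comparisons were refitted without them.

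Glyma19g36620 was higher after MAMP treatment in all 4 lines. It had 342, 493 and 358 CPM in R-11268 MAMP libraries 1, 2 and 3, against 168, 241 and 176 CPM in R-11268 controls. In R-11272 it had 546, 412 and 397 CPM with MAMP, against 192, 144 and 140 CPM in controls. The 2 inbred lines thus showed no overlap between treatments, and the lowest MAMP library of either line stood above the highest control of both. In LD the values were 394, 257 and 364 CPM with MAMP, against 205, 137 and 191 CPM in controls. In LDX they were 529, 436 and 432 CPM with MAMP, against 262, 214 and 209 CPM in controls. Each of the 4 lines separated its treatments, although the weakest MAMP library, LD pool 2, fell below the strongest control library, LDX pool 1. Among transcripts tested, MAMP libraries all lay above the controls in 15.8% for R-11268, 9.55% for R-11272, 14.8% for LD and 6.18% for LDX.

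Glyma03g33880 moved in the same direction, from much lower counts (not per length). In R-11268 it had 31.7, 42.8 and 30.3 CPM with MAMP in pools 1, 2 and 3, against 14.7, 19.8 and 14.1 CPM in controls. In R-11272 it had 74.9, 36.6 and 33.0 CPM with MAMP, against 23.0, 11.1 and 10.1 CPM in controls. Treatments did not overlap in either inbred line, and within R-11272 pool 1 held the most of this transcript in both its dishes. In LDX the values were 44.7, 35.0 and 47.1 CPM with MAMP, against 23.0, 17.8 and 23.6 CPM in controls, again without overlap. In LD they were 39.1, 18.4 and 29.6 CPM with MAMP, against 25.6, 12.3 and 19.6 CPM in controls. LD was the one line where treatments overlapped: its MAMP library 2 (18.4 CPM) lay under controls 1 and 3 (25.6 and 19.6 CPM).

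The other 3 loci showed no separation in any line, where treatments lay apart in either direction for 28.9% of transcripts in R-11268, 15.5% in R-11272, 23.7% in LD and 10% in LDX. Glyma10g06600 gave the highest counts of the family, ranked 18th of 41743 transcripts by mean share of a library (not per length). It averaged 2041 ± 311 CPM with MAMP and 2114 ± 315 CPM in controls of R-11268, and 1749 ± 293 CPM with MAMP and 1818 ± 298 CPM in controls of R-11272 (SD, n = 3 libraries each). In LD it had 2554, 741 and 1979 CPM with MAMP, against 3047, 907 and 2384 CPM in controls. In LDX it had 2620, 2153 and 1200 CPM with MAMP, against 3354, 2726 and 1496 CPM in controls. Pools of a parent thus differed several-fold. Within each pool the MAMP dish lay somewhat under its control, but pools share the fitted response of their line and do not repeat it independently.

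Glyma13g20800, ranked 74th by mean share, averaged 845 ± 97.1 CPM with MAMP and 834 ± 92.6 CPM in controls of R-11268, and 810 ± 93.9 CPM with MAMP and 708 ± 80.1 CPM in controls of R-11272 (SD, n = 3 libraries each). In LD it averaged 733 ± 278 CPM with MAMP and 811 ± 299 CPM in controls, and in LDX 742 ± 345 CPM with MAMP and 788 ± 375 CPM in controls (SD, n = 3 libraries each). The SD in the parents was much wider than the gap between treatments. That SD is between pools, whose shared deviation cancels in the gap, so it does not measure the error of the gap. Glyma02g47940 averaged 50.6 ± 8.24 CPM with MAMP and 53.2 ± 8.68 CPM in controls of R-11268, and 60.2 ± 14.8 CPM with MAMP and 51.3 ± 12.7 CPM in controls of R-11272. In LD it averaged 69.8 ± 36.5 CPM with MAMP and 66.7 ± 34.2 CPM in controls, and in LDX 53.4 ± 16.6 CPM with MAMP and 54.9 ± 17.5 CPM in controls (SD, n = 3 libraries each). Here too the groups overlapped in all 4 lines.

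**Figure D1:**
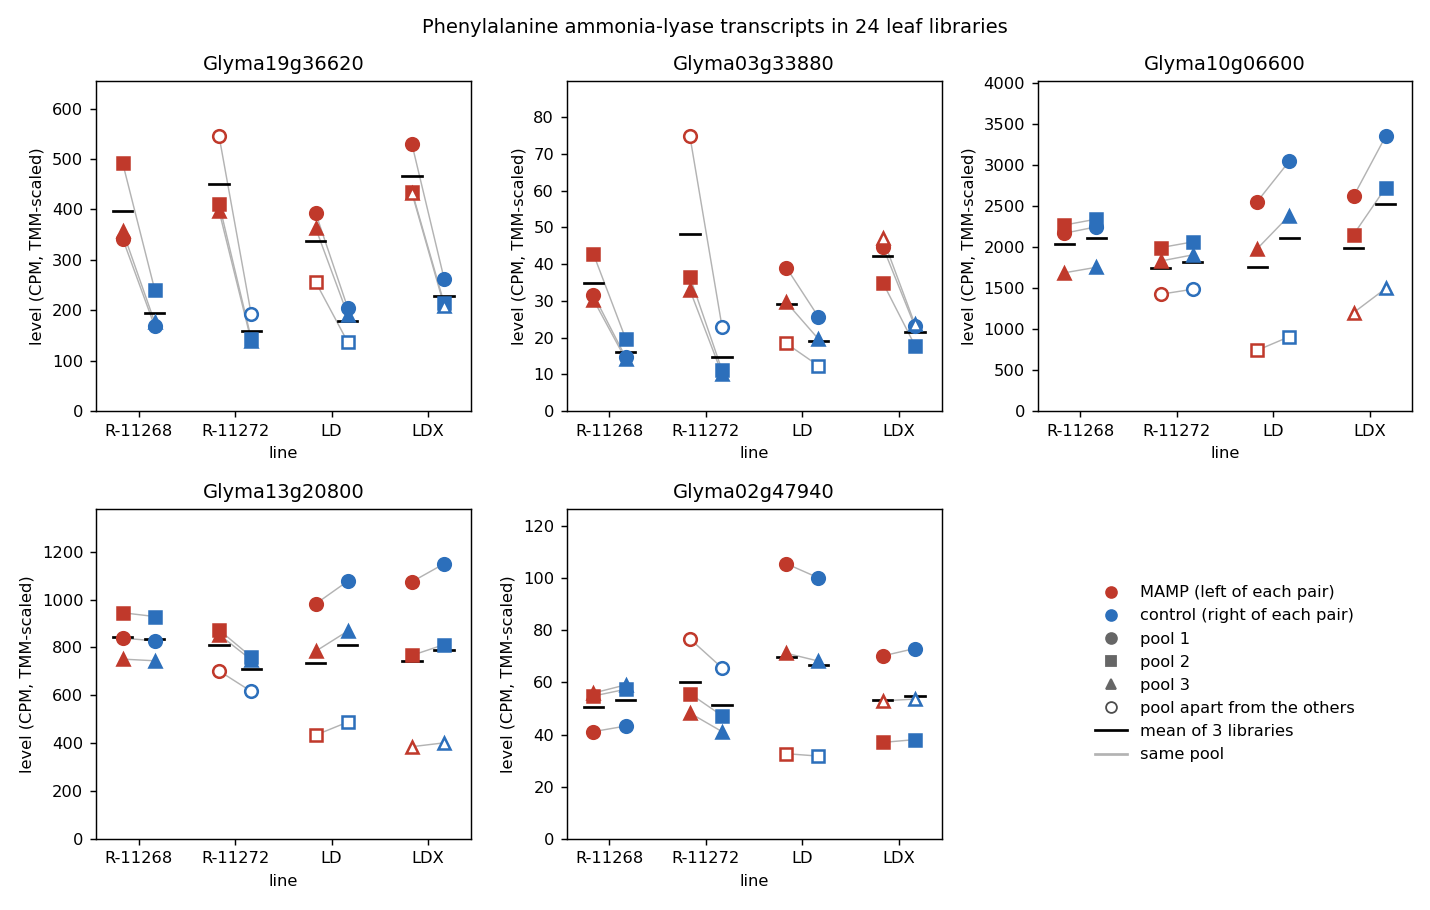
Level of each PAL locus (y axis, CPM after TMM scaling, from 0) in each of 24 libraries, by line (x axis), with MAMP left of control, black bars at the mean of 3 libraries, grey lines joining the dishes of a pool and open symbols for the 3 pools that stood apart. Glyma19g36620 and Glyma03g33880 are higher with MAMP in every line. In the other 3 loci the dishes of a pool lie close and pools of LD and LDX lie far apart. Pools of a line share the fitted response of that line and do not repeat it independently.

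Averaged over the 4 lines, 2 of the 5 loci rose and 0 fell, where 9.75% of tested transcripts were called (7.75% higher, 2% lower). A call is an adjusted p under 0.05 in edgeR's quasi-likelihood test, with Benjamini-Hochberg adjustment over all 33214 tested transcripts. The mean log2 response of Glyma19g36620 was 1.12 (SE 0.119, 95% interval 0.87 to 1.37), a 2.18-fold rise (edgeR adjusted p = 7.79e-07). That of Glyma03g33880 was 1.10 (SE 0.183, 95% interval 0.71 to 1.48), a 2.14-fold rise (edgeR adjusted p = 0.000243). Both responses were positive in 4 of 4 lines, and both calls held in 30 of 30 alternatives (the replicate block, which is void, among them), with adjusted p up to 0.00273 for Glyma19g36620 and 0.0166 for Glyma03g33880. Those highest values came from limma with the 4 lines as the only replicates, the fit in which the pools' shared fitted response counts once. That fit takes the related lines as independent, so its p-values may be too small. With a replicate block, 4 of the 5 loci were called in the mean response, 3 higher and 1 lower, but so were 54.8% of all transcripts, since the scatter it would measure is absent from fitted values.

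The mean log2 response of Glyma10g06600 was -0.18 (SE 0.227, 95% interval -0.65 to 0.30, edgeR adjusted p = 0.860). Its 4 line responses were all below 0, between -0.34 and -0.05. Glyma13g20800 had a mean log2 response of -0.0050 (SE 0.198, 95% interval -0.42 to 0.41, edgeR adjusted p = 1.00), and Glyma02g47940 one of 0.05 (SE 0.202, 95% interval -0.38 to 0.47, edgeR adjusted p = 0.977). These 2 loci were positive in 2 lines and negative in 2. None of these 3 intervals reaches the mean log2 response of 1.10 or 1.12 seen above, but none of them shows that the transcript did not change. Over the 5 loci the median log2 response was 0.05, against -0.03 over all tested transcripts.

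The responses of different loci were then set against each other within lines. Glyma19g36620 responded more than Glyma10g06600 by 1.30 ± 0.21, more than Glyma13g20800 by 1.13 ± 0.13 and more than Glyma02g47940 by 1.08 ± 0.17 on the log2 scale (SD, n = 4 lines). Glyma03g33880 exceeded the same 3 loci by 1.28 ± 0.38, 1.10 ± 0.32 and 1.05 ± 0.40 (SD, n = 4 lines). Each of these 6 differences was positive in 4 of 4 lines, and each had an exact sign-flip p of 0.125 (two-sided), the smallest that 4 lines allow. Glyma19g36620 and Glyma03g33880 themselves differed by 0.03 ± 0.23, with 2 lines on either side (exact sign-flip p = 0.875, n = 4 lines). In all, 10 pairs of loci were compared, and no design with 4 lines can bring such a p under 0.05. The sign flips also take the related lines as independent.

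**Figure D2:**
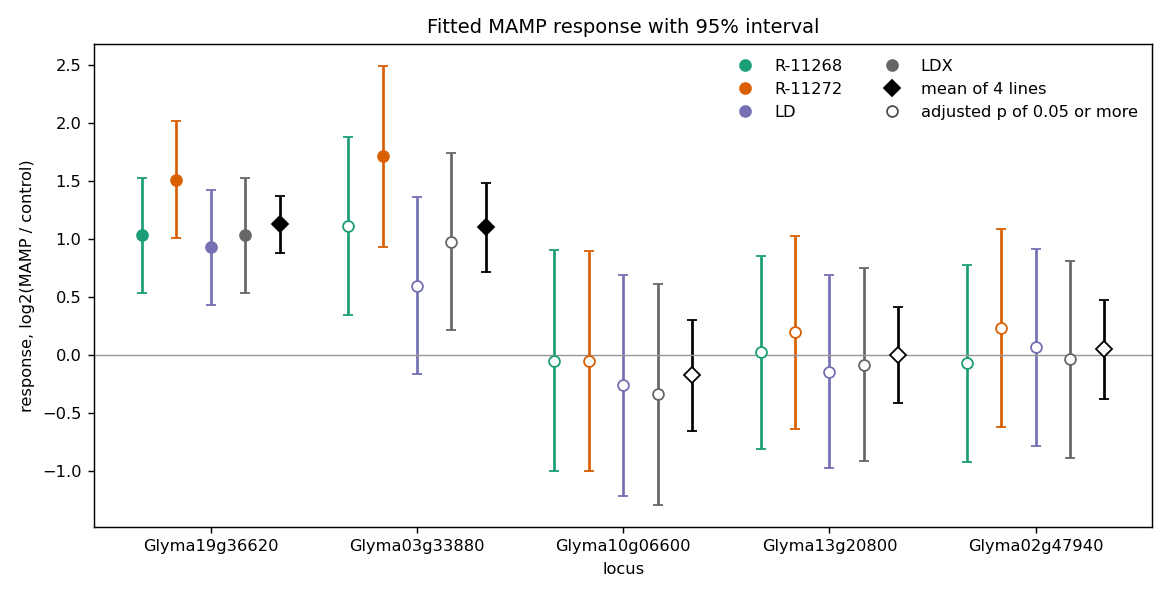
Fitted log2 response (y axis, MAMP over control) of each PAL locus (x axis) in R-11268, R-11272, LD and LDX and as the mean of 4 lines, with 95% intervals from the edgeR fit; filled symbols have an adjusted p under 0.05. Glyma19g36620 is filled in every line at 0.93 to 1.51, Glyma03g33880 in R-11272 alone at 1.71, and the intervals of the other 3 loci all hold 0.

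Line by line, Glyma19g36620 rose by 1.03 in R-11268 (edgeR adjusted p = 0.0147), 1.51 in R-11272 (edgeR adjusted p = 0.000330), 0.93 in LD (edgeR adjusted p = 0.0247) and 1.03 in LDX (edgeR adjusted p = 0.0140) on the log2 scale. It was the single PAL call in R-11268, LD and LDX, where 3.16%, 4.38% and 3.47% of tested transcripts were called higher and 3.39%, 4.67% and 3.78% in either direction. Glyma03g33880 rose in R-11272, by 1.71 (95% interval 0.93 to 2.49, edgeR adjusted p = 0.00759), where 2 of the 5 loci were called higher beside 3.9% of transcripts (4.3% in either direction). The same locus stood at 1.11 in R-11268 (95% interval 0.34 to 1.88, edgeR adjusted p = 0.152), 0.59 in LD (-0.17 to 1.36, edgeR adjusted p = 0.757) and 0.98 in LDX (0.21 to 1.74, edgeR adjusted p = 0.239). No PAL locus was called lower in any line.

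The calls in single lines, except that of Glyma19g36620 in R-11272, were lost without certain single libraries. That of Glyma19g36620 in R-11268 was lost without control 1, control 3 or MAMP 2 (edgeR adjusted p = 0.108, 0.101 and 0.116). In LD it was lost without control 2, control 3, MAMP 1 or MAMP 3 (edgeR adjusted p = 0.157, 0.0650, 0.135 and 0.0960), and in LDX without control 2, control 3 or MAMP 1 (edgeR adjusted p = 0.0801, 0.0571 and 0.0754). In R-11272 it held without each library in turn. Each such fit kept the other dish of the pool. The LD response of Glyma19g36620 was 0.77 without control 2 alone (edgeR adjusted p = 0.157). It was 0.93 without the 3 pools apart, where both dishes of LD pool 2 were dropped (edgeR adjusted p = 0.0119). In fits of a line's own 6 libraries the call of Glyma19g36620 was lost in R-11272, LD and LDX (edgeR adjusted p = 0.0703, 0.119 and 0.495). That of Glyma03g33880 in R-11272 was lost without control 2, control 3 or MAMP 1 (edgeR adjusted p = 0.0628, 0.0615 and 0.0614) and in the fit of that line alone (0.288), while the fit of R-11268 alone called this locus there (0.0222). Without the 3 pools apart, a choice made after seeing the data, the responses hardly moved. Pools of a line share the fitted response of that line, so dropping whole pools could not move it apart from scaling. The SE did change, for Glyma03g33880 in R-11268 from 0.366 to 0.187. Glyma03g33880 was then called also in R-11268 (1.12, edgeR adjusted p = 0.00140) and LDX (0.97, edgeR adjusted p = 0.0196) but not in LD (0.59, edgeR adjusted p = 0.183). In that fit 8.19% of transcripts were called in R-11268, 6.6% in LDX and 7.52% in LD, in either direction.

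R-11272 had the highest fitted response of the 4 lines for 4 of the 5 loci, Glyma19g36620, Glyma03g33880, Glyma13g20800 and Glyma02g47940. Glyma13g20800 and Glyma02g47940 were not called in that line. How often R-11272 was highest over all tested transcripts was not counted, so the number of loci is a description. For Glyma13g20800 the line responses were 0.02 in R-11268, 0.19 in R-11272, -0.15 in LD and -0.09 in LDX, and for Glyma02g47940 they were -0.07, 0.23, 0.06 and -0.04 in the same lines. The F test of a difference in response among lines called 0 of the 5 loci, where 0.148% of transcripts were called. Its unadjusted p lay between 0.219 for Glyma03g33880 and 0.955 for Glyma10g06600, so 0 loci passed at an unadjusted 0.05 either (edgeR adjusted p = 1 for all 5), and DESeq2 called 0 as well. Without the 3 pools apart it also called 0 of 5, at edgeR adjusted p = 0.417 to 1, where 0.479% of transcripts were called. The F test thus detected no difference in PAL response between lines, with responses of Glyma03g33880 spread from 0.59 to 1.71. It sets responses against the spread of levels between pools, and the replicate error of a response is absent from fitted values. It therefore cannot decide whether the lines differed in response.

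Levels were next compared between lines within a treatment. In controls, Glyma19g36620 averaged 195 ± 39.9 CPM in R-11268, 159 ± 29.2 CPM in R-11272, 178 ± 35.9 CPM in LD and, for LDX, 228 ± 29.7 CPM (SD, n = 3 libraries each). With MAMP it averaged 398 ± 82.7, 452 ± 81.9, 338 ± 72.0 and 466 ± 55.0 CPM in the same lines (SD, n = 3 libraries each). Ordered by level, the 8 groups ran from LDX, R-11272, R-11268 and LD with MAMP to LDX, R-11268, LD and R-11272 controls, and each group overlapped the next one down. R-11272 thus had the second highest MAMP mean and the lowest control mean.

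For Glyma03g33880 the MAMP means were 34.9 ± 6.83 CPM in R-11268, 48.1 ± 23.2 CPM in R-11272, 29.0 ± 10.3 CPM in LD and, in LDX, 42.3 ± 6.41 CPM, and the control means 16.2 ± 3.09, 14.7 ± 7.14, 19.2 ± 6.66 and 21.5 ± 3.17 CPM in the same lines (SD, n = 3 libraries each). R-11272 again had the lowest control mean. Neighbours in the order of levels overlapped for all 5 loci. The F test among lines called 0 of 5 loci in MAMP libraries, where 10.7% of transcripts were called (edgeR adjusted p = 0.520 to 0.970), and 0 of 5 in controls, where 8% were (edgeR adjusted p = 0.483 to 0.971). At an unadjusted 0.05, 0 loci passed in either treatment, and DESeq2 called 0 in both.

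Of 30 comparisons of a locus between a pair of lines in MAMP libraries, 0 were called, with log2 differences between -0.54 and 0.73. Of all transcripts, the 6 pairs called 1.84% for R-11268 against R-11272, 4.13% for R-11268 against LD, 2.18% for R-11268 against LDX, 9.43% for R-11272 against LD, 2.84% for R-11272 against LDX and 6.4% for LD against LDX. Of 30 in controls 0 were called, and 1 had an unadjusted p under 0.05. The same pairs called 1.96%, 1.52%, 3.84%, 4%, 2.24% and 5.24% of all transcripts in controls, in that order. Glyma19g36620 was lower in R-11272 than in LDX controls by a log2 difference of -0.53 (95% interval -1.02 to -0.03, edgeR adjusted p = 0.423). The widest interval in these comparisons reached 0.95 on either side of its estimate, so a missing call does not show that lines had equal levels. DESeq2 called 0 of the 60.

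Without the 3 pools apart, the F test among lines called Glyma03g33880 in controls (edgeR adjusted p = 0.0227), where 17.4% of transcripts were called. Its controls were then lower in R-11272 than in LD by -1.09 (edgeR adjusted p = 0.0168) and lower than in LDX by -0.97 (edgeR adjusted p = 0.0294). Glyma19g36620 was lower in R-11272 than in LDX controls by -0.77 (edgeR adjusted p = 0.0459). For these 2 pairs of lines 5.94% and 6.2% of transcripts were called. That leaves 2 pools in R-11272, LD and LDX, and in MAMP libraries 0 loci were called in the same fit. The dropped R-11272 control held the most Glyma03g33880 of its line (23.0 CPM, against 11.1 and 10.1 CPM). The dropped LD control held the least (12.3 CPM, against 25.6 and 19.6 CPM), and the LDX one the most (23.6 CPM). For Glyma19g36620 the dropped R-11272 control was the highest (192 CPM) and the LDX one the lowest (209 CPM) of its line. These places are under TMM scaling. By library total the R-11272 control was the lowest of its line for Glyma19g36620 (133 CPM). The LDX control was then in the middle for Glyma03g33880, and the other places held. With all pools the 3 differences were -0.39, -0.55 and -0.53. Line differences in MAMP and in control libraries are 2 readings of the same pools.

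The spread between pools was then described locus by locus. Over all 24 libraries Glyma10g06600 had a median of 2028 CPM and reached from 741 CPM (LD MAMP 2) to 3354 CPM (LDX control 1). Glyma13g20800 reached from 385 CPM (LDX MAMP 3) to 1150 CPM (LDX control 1). Both loci were lowest of their line in all 6 libraries of the pools apart, under TMM, RLE and scaling by library total. The MAMP and control dishes of a pool are not separate measurements of this.

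In LD pool 2, Glyma10g06600 stood at 0.327 times the mean of the line's other pools with MAMP and at 0.334 times in control. In LDX pool 3 the ratios were 0.503 with MAMP and 0.492 in control, and in R-11272 pool 1 they were 0.745 with MAMP and 0.749 in control. For Glyma13g20800 they were 0.491 with MAMP and 0.502 in control of LD pool 2, 0.418 with MAMP and 0.409 in control of LDX pool 3, and 0.813 with MAMP and 0.817 in control of R-11272 pool 1. Pools of a line share 1 fitted ratio of MAMP to control, so the MAMP and control ratios of a pool had to agree apart from scaling. They amount to 1 value per pool and do not show that the lower level held in both treatments.

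The other 3 loci were not all lowest of their line in these pools. Under TMM scaling Glyma03g33880 was highest of its line in 4 of the 6 libraries, those of LDX pool 3 and R-11272 pool 1, and in LDX pool 3 it stood at 1.18 times the other pools with MAMP and 1.15 times in control. Scaling by library total put it at 0.810 with MAMP and 0.894 in control there. Glyma02g47940 was highest in 2 of the 6 libraries, in the middle in 2 and lowest in 2 under TMM, and never highest by library total. In R-11272 pool 1 Glyma19g36620 stood at 1.35 times the other pools with MAMP and 1.36 times in control, and Glyma03g33880 at 2.15 times with MAMP and 2.16 times in control. By library total the first of these turned round, and Glyma19g36620 was at 0.970 with MAMP and 0.867 in control, and lowest of its line in all 6 libraries of the pools apart. Glyma03g33880 stayed above the other pools of R-11272, at 1.55 with MAMP and 1.38 in control. TMM factors of R-11272 pool 1 were 0.762 with MAMP and 0.694 in control, against 1.05 to 1.11 in the line's other libraries. The part of these pools' differences in any level above was not tested.

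**Figure D3:**
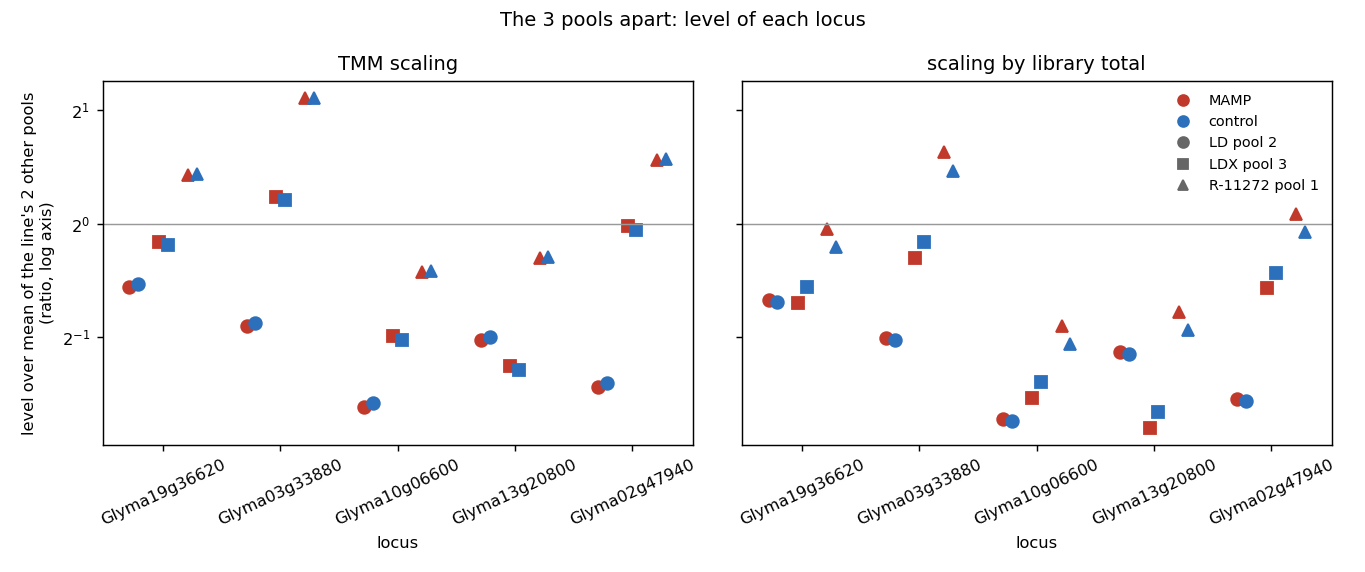
Level of each PAL locus (x axis) in the 3 pools that stood apart, as a ratio to the mean of the line's other pools (y axis, log axis), with MAMP left of control, under TMM scaling (left) and scaling by library total (right). Glyma10g06600 and Glyma13g20800 lie under 1 in all 6 libraries in both panels, while Glyma19g36620 in R-11272 pool 1 changes side between panels. The MAMP and control ratios of a pool are not separate measurements.

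Levels of the loci were then correlated across libraries. Log2 CPM of Glyma19g36620 and Glyma03g33880 correlated at a Pearson r of 0.943 over 24 libraries and 0.964 over 18 without the pools apart. Glyma10g06600 and Glyma13g20800 correlated at 0.874 and 0.822, while Glyma19g36620 and Glyma10g06600 correlated at 0.0956 and -0.0115. Glyma02g47940 correlated at 0.494 with Glyma10g06600, 0.478 with Glyma13g20800, 0.448 with Glyma03g33880 and 0.292 with Glyma19g36620 over 24 libraries. Over the 18 libraries these values were 0.433, 0.655, 0.329 and 0.166, so its highest r was then with Glyma13g20800. These values describe points that share pools, scaling and the fitted treatment term, and copies that share reads would correlate as well.

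The 3 transcripts of other loci most like each PAL locus over the 24 libraries were also taken. For Glyma19g36620 they were Glyma13g32630.1 (r = 0.979), Glyma15g18580.1 (r = 0.964) and Glyma09g37190.1 (r = 0.962), with mean log2 responses of 1.04, 1.76 and 0.84. The correlation was taken over MAMP and control libraries together, so the choice itself favours transcripts with a like response, and these responses are a description. For Glyma03g33880 they were Glyma19g36620.1 (r = 0.943), Glyma13g32630.1 (r = 0.942) and Glyma03g33890.1 (r = 0.942). The 2 responsive PAL loci thus shared Glyma13g32630.1, whose log2 responses were 0.91 in R-11268, 1.34 in R-11272, 0.99 in LD and 0.91 in LDX. For Glyma10g06600 the nearest was Glyma07g07510.1 (r = 0.912), for Glyma13g20800 it was Glyma18g53700.1 (r = 0.974), and for Glyma02g47940 it was Glyma20g39280.1 (r = 0.886). The identifiers carry no names in the sources used here.

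Loci next to the PAL genes by number were examined as well, 3 on each side. Of 30 such transcripts 26 were abundant enough to test, 1 was called higher and 1 lower, where 7.75% and 2% of all tested transcripts were. The higher one was Glyma03g33890.1, which follows Glyma03g33880 and had a mean log2 response of 1.09 (SE 0.207, edgeR adjusted p = 0.000972). In R-11268 it averaged 33.2 ± 2.64 CPM with MAMP and 15.2 ± 1.15 CPM in controls, and in R-11272 49.4 ± 30.4 CPM with MAMP and 18.0 ± 11.2 CPM in controls (SD, n = 3 libraries each). Its log2 responses were 1.13 in R-11268, 1.46 in R-11272, 0.83 in LD and 0.94 in LDX, none of them called in its line (edgeR adjusted p = 0.247, 0.0582, 0.520 and 0.403). RefSeq places PAL1.2 and PAL1.3 next to each other on chromosome 3, and copies can share reads. Whether Glyma03g33890.1 is a PAL copy or shares reads with Glyma03g33880 was not tested.

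The locus after Glyma19g36620, Glyma19g36630.1, was lower by -0.36 (SE 0.0962, edgeR adjusted p = 0.0201). The other 5 neighbours of Glyma19g36620 had mean log2 responses between -0.04 and 0.13 and were not called. Among the neighbours of Glyma10g06600, Glyma13g20800 and Glyma02g47940, 0 of 16 tested were called.

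**Figure D4:**
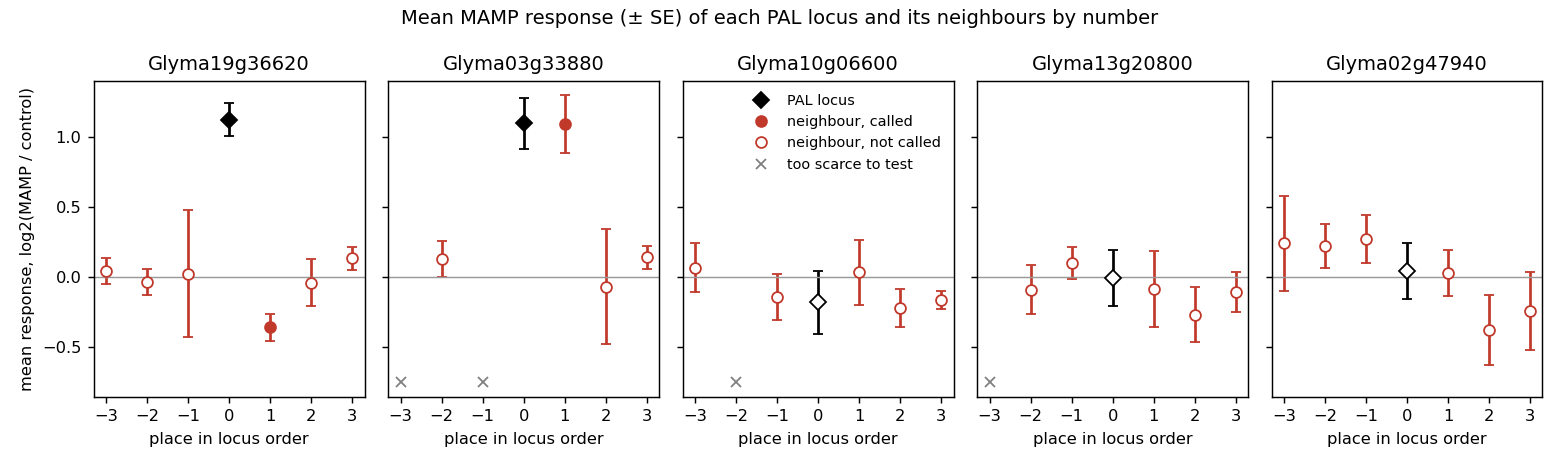
Mean log2 response to MAMP over 4 lines (y axis, ± SE) of each PAL locus (black diamond at 0) and of the 3 loci before and after it by number (x axis, place in locus order, not distance); filled symbols have an adjusted p under 0.05 and crosses mark transcripts too scarce to test. The 2 responsive PAL loci stand at 1.12 and 1.10, and one neighbour, after Glyma03g33880, reaches 1.09.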

How the data were processed

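RNA-seq of 24 leaf libraries was deposited as 1 table of estimated counts per transcript. The submitters' processing notes list Cufflinks 1.1.0, TopHat 1.4.1 and Bowtie 0.12.7. How the authors made these values, the genome build and the annotation were not given in the sources used here. Of the column endings, C was read as control and P, unexplained in the labels, as MAMP. Other columns of per-sample values numbered 0.

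Counts were rounded, filtered with filterByExpr (minimum count 10, minimum total 15), scaled with TMM and fitted in R 4.3.3 with edgeR 4.0.16: 8 group means, 24 libraries, 16 residual degrees of freedom, no block. Since both dishes of a pool deviate together, the independent degrees of freedom are fewer and p-values may be too small. In a response this shared deviation cancels, yet the unblocked fit counts it as error, so p-values of responses may also be too large. The replicate error of a response cannot be read from fitted values. Deviations of same-numbered libraries of a line correlated at 0.987 or more, against 0.809 or less for other numbers, so numbers were taken as pools, which cannot be separated from the authors' model. Intervals cover the fit's error at the 95% level. Alternatives were RLE, no filter, DESeq2 1.42.0, limma 3.58.1 over lines, a replicate block, fewer libraries and each library left out.

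Named transcripts are the 5 loci, the 3 neighbours by number on each side and the 3 most correlated transcripts (log2 CPM, prior count 2). The members, lists and comparisons were chosen with earlier results of these data known.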

Additional observations from a re-analysis of the deposited data

How the results depend on the processing

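The calls of Glyma19g36620 and Glyma03g33880 in the mean response kept their direction and stayed past the threshold in every alternative run (the replicate block is void, as given below). RLE, no filter and DESeq2 left every count of called loci as it was. With the replicate block (pool of a control and a MAMP library), called loci numbered 4 in the mean response, 3 in R-11268, 5 in R-11272, 4 in LD and in LDX alike, and 5 in the response difference. Of all transcripts the block called 54.8%, 34.1%, 47.3%, 44.1%, 41.1% and 53.8% in these comparisons, since fitted pools carry one response, so its p-values are void; as sums over each pool it changed no count of line differences. With only the libraries of the line, called loci numbered 2 in R-11268 but 0 in R-11272, LD or LDX, where 8.19%, 2.2%, 6.51% and 0.499% of all transcripts were called. Glyma19g36620 then had adjusted p = 0.119 in LD, 0.495 in LDX and 0.0703 in R-11272, and Glyma03g33880 0.0222 in R-11268 and 0.288 in R-11272 (edgeR).

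Without the 3 pools apart, called loci numbered 2 in LDX, 2 in R-11268, 1 for line differences in control and 3 for line pairs in control, and the mean response of Glyma13g20800 changed sign to 0.0037. Leaving out each library in turn gave 1 to 2 called loci in R-11272 and 0 to 1 in each other line. It also turned the sign of responses with no call in the unblocked fit of all libraries. For Glyma13g20800 they ran from -0.10 to 0.090 in the mean, -0.072 to 0.10 in R-11268, -0.42 to 0.12 in LD and -0.46 to 0.31 in LDX. For Glyma02g47940 they ran from -0.061 to 0.14 in the mean, -0.20 to 0.056 in R-11268, -0.36 to 0.48 in LD and -0.31 to 0.23 in LDX. For Glyma10g06600 they ran from -0.64 to 0.10 in LD, -0.17 to 0.072 in R-11268 and -0.18 to 0.073 in R-11272. Each fit without a single library kept the other dish of that pool. For Glyma10g06600 in LD the response was 0.10 without MAMP 2 alone. It was -0.27 without the 3 pools apart, where both dishes of LD pool 2 were dropped. The cause of these changes was not tested. The lowest count of any of the 5 loci in a library was 115.4, and the responses rest on 4 lines.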

Other observations

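The 5 PAL loci together took 0.355% ± 0.0498 of a library with MAMP and 0.354% ± 0.0487 in controls of R-11268, and 0.302% ± 0.0760 with MAMP and 0.267% ± 0.0884 in controls of R-11272 (SD, n = 3 libraries each, share of estimated counts). In LD they took 0.288% ± 0.136 with MAMP and 0.333% ± 0.164 in controls, and in LDX 0.331% ± 0.162 with MAMP and 0.384% ± 0.186 in controls (SD, n = 3 libraries each). The summed share was thus set mainly by Glyma10g06600 and Glyma13g20800, whose mean shares were 0.208% and 0.0806%, against 0.0301% for Glyma19g36620 and 0.00277% for Glyma03g33880. A sum over these 5 loci would hide the rise of the last 2 loci in LD and LDX, where its mean was lower with MAMP than in controls. The sum was lower with MAMP in each of the 6 pools of LD and LDX, for example 0.402% with MAMP and 0.469% in control of LD pool 1. In R-11272 the sum was higher with MAMP in each pool, for example 0.354% with MAMP and 0.322% in control of pool 2. Pools of a line carry one fitted response per locus and are not separate measurements of it. The shares are not TMM-scaled, and these differences were not tested.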
